A study of Mus musculus with 18 samples.

Results

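Formative pluripotency is the state that epiblast cells pass through between the naive state of the early embryo and the primed state that precedes gastrulation. The genes Tcf15, Otx2, Fgf5, Pou3f1, Gbx2 and Foxd3 were taken as a named set of formative epiblast genes and matched by mouse Entrez identifier. They are 6 of the 36528 genes in the count files, and 5 of them passed the filter on low counts that left 16875 genes for testing. Fgf5 had too few reads to pass.

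The libraries held polyadenylated RNA from mouse embryonic stem cells (mESC) in 6 groups of 3. BAP1 is an enzyme that takes ubiquitin off histone H2A. RNF2, a ligase of the Polycomb complex PRC1, puts it on. The groups were BAP1 wild type, a conditional BAP1 knockout line left without 4-hydroxytamoxifen (4-OHT), the BAP1 knockout made from that line with 4-OHT, a C91A line without 4-OHT, the knock-in BAP1 C91A mutant (cysteine 91 is the catalytic residue of BAP1) made with 4-OHT, and an RNF2-BAP1 double knockout made with 4-OHT. The drug was used at 100 nM for 4 days to start recombination by Cre. Cells of every group were given emricasan, a caspase inhibitor, so that cells without BAP1 did not die. The untreated lines lacked the drug, so each allele's effect includes that of the drug and of active Cre. The labels do not say whether the wild type received the drug, which line the double knockout came from, or which promoter drove Cre. The labels do not say that replicates were separate cultures, so p-values measure the spread between these libraries, which may be technical.

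In the naive state of embryonic stem cells LIF, BMP and WNT signals and factors such as Klf4 and Esrrb hold differentiation genes low. Signalling by FGF4 through ERK moves cells out of it, and Otx2, Pou3f1 and Fgf5 then rise while naive factors fall. Tcf15 marks embryonic stem cells that are about to leave the naive state, Foxd3 is needed for the epiblast, and Gbx2 is also known as a LIF-STAT3 target that sustains naive cells, so the set does not stand for a single direction of change.

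The promoters of the genes with the deepest falls among those in the promoter table, Foxd3 and Gbx2, are shown because Tcf15 is a factor of the bHLH class, whose members bind the E-box CANNTG. Each is the 250 bases upstream of the RefSeq start in GRCm38.p6, 5′ to 3′ on the gene's own strand, with matches to CANNTG in capitals. Foxd3 is at chr4:99656049-99656298 on the + strand and Gbx2 at chr1:89931177-89931426 on the - strand.
Foxd3: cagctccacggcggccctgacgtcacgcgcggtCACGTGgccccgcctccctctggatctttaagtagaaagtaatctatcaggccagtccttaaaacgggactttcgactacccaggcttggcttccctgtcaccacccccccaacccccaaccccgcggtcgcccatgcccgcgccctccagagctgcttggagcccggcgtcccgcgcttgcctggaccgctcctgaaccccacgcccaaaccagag
Gbx2: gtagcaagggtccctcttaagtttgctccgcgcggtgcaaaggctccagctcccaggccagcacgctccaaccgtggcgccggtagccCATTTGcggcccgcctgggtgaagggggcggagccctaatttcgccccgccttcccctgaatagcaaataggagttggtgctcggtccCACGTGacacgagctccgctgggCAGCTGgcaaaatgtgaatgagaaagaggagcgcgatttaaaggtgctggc
The Foxd3 window held 1 match to CANNTG and the Gbx2 window 3. Both windows held CACGTG, a form of CANNTG that reads the same on both strands, as CANNTG itself does. Of 32851 RefSeq windows of the same length, 66.2% held CANNTG and 6.02% held CACGTG. The Foxd3 window held 21 CpG and the Gbx2 window 18, against a median of 6 over all windows. Of all windows, 16.3% held at least as many CpG as that of Foxd3 and 21.7% as that of Gbx2. These are matches of letters and say nothing of binding. The Fgf5 window held no CANNTG and 24 CpG. Otx2 had 4 windows, one for each start in the table, with 6 to 14 CpG, 0 to 2 matches to CANNTG and no CACGTG. Tcf15 and Pou3f1 were not in the promoter table.

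Libraries held 8.11 to 23.0 M counts (M for mega), and the BAP1 knockout libraries were the shallowest as a group (mean 12.7 M). Gene-wide counts of the targeted genes checked the labels only in part, because reads outside a deleted or changed part are still counted. Rnf2 was lowest in the double knockout, at 74.5 ± 3.52 CPM (SD, n = 3) against 103 to 123 CPM as group means elsewhere. Bap1 was at 150 ± 2.30 CPM in the knockout and 169 ± 1.53 in its untreated line. In the untreated C91A line it was at 88.8 ± 4.56 CPM and in the C91A mutant at 165 ± 1.66, so Bap1 RNA was lower in that line without the drug than with it. The embryonic stem cell markers, which include Pou5f1, Sox2 and Sall4, summed to 2863 to 4081 CPM across the libraries, with 11 of 11 tested.

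CPM here are counts per mega of TMM-scaled library size, and a value after ± is the SD of 3 libraries. Log2 fold changes are given with their standard error (SE), and p-values are adjusted over all 16875 genes by the Benjamini-Hochberg method in edgeR's quasi-likelihood test, with a threshold of 0.05. In bulk samples, fewer cells that express a gene and less RNA per cell cannot be told apart.

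**Figure D1:**
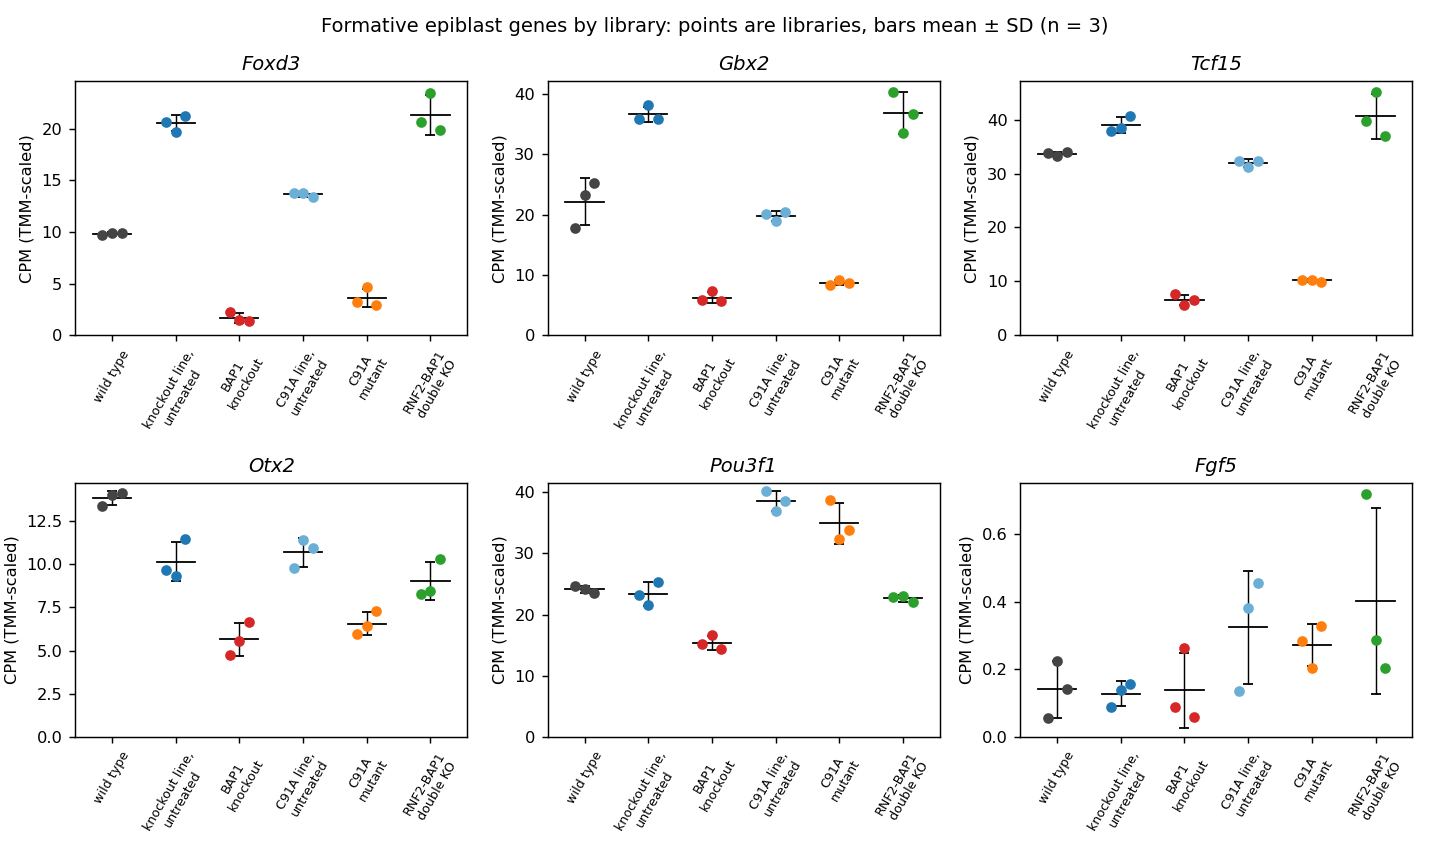
CPM (TMM-scaled) of the 6 formative genes in each of the 18 libraries, by group on the horizontal axis, each panel on its own linear axis from 0. Points are libraries and bars are the mean ± SD (n = 3). For Foxd3, Gbx2 and Tcf15 the knockout and C91A mutant libraries sit below the libraries of the other 4 groups, and Fgf5 stays under 1 CPM in each library.

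Foxd3, a forkhead transcription factor that the epiblast and later the neural crest need, lies at chr4:99656299-99658671 on the + strand in GRCm38.p6 and has 1 exon. Its levels were 20.6, 19.7 and 21.2 CPM in the untreated knockout line and 2.25, 1.45 and 1.38 CPM in the knockout. The C91A line gave 13.8, 13.8 and 13.4 CPM without the drug and 3.26, 4.63 and 2.96 CPM in the mutant. In both lines the 3 treated libraries lay below the 3 untreated ones, without overlap. The double knockout was at 20.6, 23.5 and 19.9 CPM, a range that overlaps that of the untreated knockout line. The wild type was lower, at 9.67, 9.92 and 9.95 CPM. In GENCODE M21 the microRNA gene Gm23366 overlaps Foxd3 on the same strand, and its reads were not looked at.

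Foxd3 fell by 3.61 on the log2 scale in the knockout (SE 0.16, adjusted p = 1.43e-22). With C91A it fell by 1.93 (SE 0.13, adjusted p = 4.80e-16). The knockout held 8.25% of the level of its untreated line, and the mutant 26.5%. The counts behind the knockout were 11 to 25 reads a library, so its level is less precise than those of the other groups. Of the 11907 genes whose log2 CPM averaged 2 or more, 6 were at least as low as Foxd3 in the knockout comparison, Foxd3 included.

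Gbx2, a homeobox transcription factor of naive cells and later of the hindbrain boundary, lies at chr1:89927962-89931176 on the - strand. Its levels were 35.8, 38.1 and 35.8 CPM in the untreated knockout line and 5.76, 7.26 and 5.65 CPM in the knockout. They were 20.1, 18.9 and 20.4 CPM in the untreated C91A line and 8.29, 9.13 and 8.70 CPM in the mutant. No knockout or mutant library reached the lowest library of its own control. In the double knockout Gbx2 was at 40.4, 33.5 and 36.6 CPM, around the level of the untreated knockout line, and in the wild type it was at 17.7, 23.3 and 25.3 CPM, the widest spread of a wild-type value among the 6 genes apart from Fgf5.

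Gbx2 fell by 2.59 in the knockout (SE 0.12, adjusted p = 5.33e-22), to 17.0% of its control, and by 1.18 in the C91A mutant (SE 0.11, adjusted p = 5.18e-12), to 44.1%. In GENCODE M21 a transcript on the opposite strand, D130058E05Rik, overlaps Gbx2, and RefSeq gives that name as a synonym of Gbx2. The labels do not say whether counting used strand, so reads from that transcript and from Gbx2 cannot be told apart.

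Tcf15, a bHLH transcription factor that pairs with E proteins, lies at chr2:152143056-152149097 on the + strand. It was at 37.9, 38.4 and 40.6 CPM in the untreated knockout line and at 7.56, 5.68 and 6.49 CPM in the knockout. It was at 32.4, 31.2 and 32.4 CPM in the untreated C91A line and at 10.3, 10.3 and 9.91 CPM in the mutant. The 2 treated groups did not overlap with any other group or with each other. In the double knockout it was at 39.8, 45.2 and 36.9 CPM and in the wild type at 33.8, 33.2 and 33.9 CPM.

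Tcf15 fell by 2.55 in the knockout (SE 0.10, adjusted p = 2.06e-24), to 16.9% of its control, and by 1.65 in the C91A mutant (SE 0.09, adjusted p = 1.06e-19), to 31.8%. Tcf15, Gbx2 and Foxd3 were the 3 members with the deepest falls in both lines, and the remaining tested members moved less.

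Otx2, a homeobox factor that drives cells from the naive to the formative state, lies at chr14:48656781-48667644 on the - strand. It was at 9.66, 9.33 and 11.4 CPM in the untreated knockout line and at 4.77, 5.55 and 6.67 CPM in the knockout. It was at 9.76, 11.4 and 10.9 CPM in the untreated C91A line and at 5.95, 6.41 and 7.28 CPM in the mutant. Both treated groups lay below their controls without overlap, and they overlapped each other. The double knockout was at 8.30, 8.44 and 10.3 CPM, and the wild type, at 13.4, 14.0 and 14.1 CPM, was the highest of the groups. Otx2 fell by 0.80 in the knockout (SE 0.14, adjusted p = 2.53e-06) and by 0.71 in the C91A mutant (SE 0.13, adjusted p = 7.70e-06), to 55.8% and 61.2% of the controls. Of the genes that overlap Otx2 in GENCODE M21, Otx2os1 had at most 7 reads in a library. The other, Gm49154, lies on the same strand as Otx2, and its reads were not looked at.

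Pou3f1, a POU-domain factor (OCT6) of the epiblast and later of neural cells, lies at chr4:124657646-124660655 on the + strand and has 1 exon. It was at 23.2, 21.5 and 25.4 CPM in the untreated knockout line and at 15.2, 16.6 and 14.4 CPM in the knockout, with no overlap. It was at 40.3, 36.9 and 38.6 CPM in the untreated C91A line and at 38.7, 32.4 and 33.8 CPM in the mutant, and these ranges overlapped. The double knockout was at 22.9, 23.0 and 22.0 CPM and the wild type at 24.7, 24.2 and 23.5 CPM. Pou3f1 fell by 0.62 in the knockout (SE 0.09, adjusted p = 1.14e-07), to 65.9% of its control. For the C91A mutant the difference was -0.14 (SE 0.07, adjusted p = 0.0983, 95% interval -0.29 to 0.01) and did not pass. Without C91A mutant replicate 1 it was -0.22, with an adjusted p of 0.0198. The overlapping antisense transcript Gm2164 had at most 20 reads in a library.

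Fgf5, a secreted FGF and a classic marker of the epiblast after implantation, lies at chr5:98254184-98277033 on the + strand. It had 1 to 5 reads a library in the wild type, 2 to 3 in the untreated knockout line, 1 to 2 in the knockout, 2 to 9 in the untreated C91A line, 3 to 6 in the C91A mutant and 4 to 11 in the double knockout. The highest single library, a double knockout, was at 0.719 CPM. With no filter on low counts it passed in none of the comparisons. The smallest adjusted p was 0.114, for the double knockout against the knockout, so a change of Fgf5 was not detectable at this depth.

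**Figure D2:**
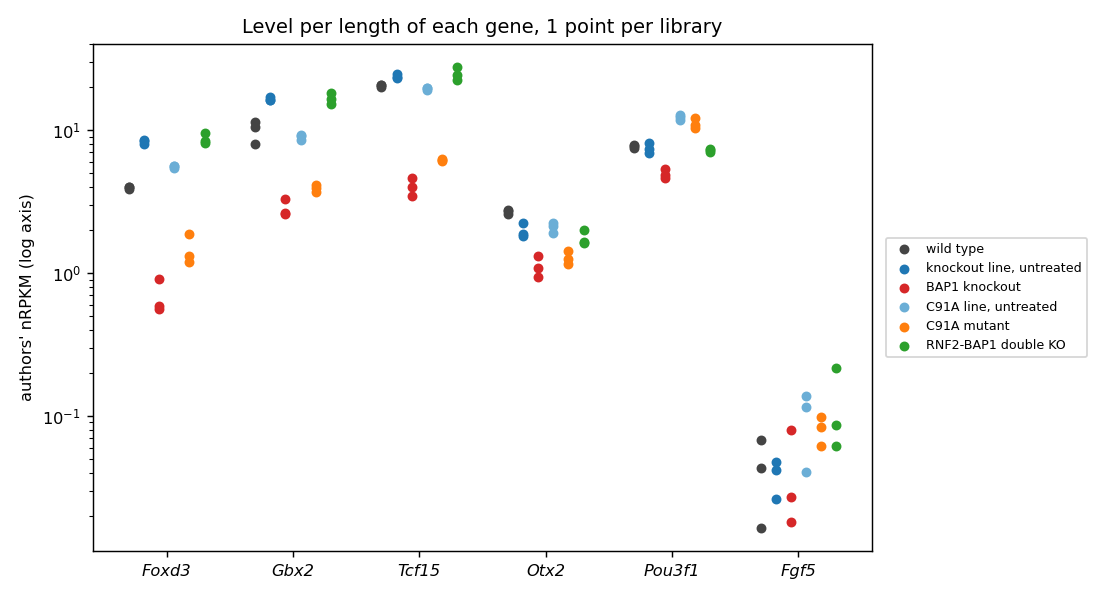
The authors' size-factor-adjusted RPKM (nRPKM) of the 6 genes on a log axis, 1 point per library, with the 6 groups in the order of the legend within each gene. Among the wild-type libraries Tcf15 is the highest gene, at 20.5 ± 0.249, and Fgf5 lies below 0.3 in each library.

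Levels between genes can be set side by side only per length, for which the authors' nRPKM serves. In the wild type Tcf15 was at 20.5 ± 0.249 nRPKM, Gbx2 at 9.99 ± 1.78, Pou3f1 at 7.70 ± 0.177, Foxd3 at 3.99 ± 0.0689, Otx2 at 2.70 ± 0.0843 and Fgf5 at 0.0423 ± 0.0256. In the knockout the order by level was another one, with Pou3f1 at 4.95 ± 0.364, Tcf15 at 4.04 ± 0.578, Gbx2 at 2.83 ± 0.408, Otx2 at 1.11 ± 0.190 and Foxd3 at 0.691 ± 0.196. The library ranges of Pou3f1 and Tcf15 touched there, with Pou3f1 from 4.62 and Tcf15 up to 4.64. In the C91A mutant Pou3f1 was also the highest, at 11.1 ± 0.989 nRPKM against 6.19 ± 0.106 for Tcf15, and the ranges of Foxd3 and Otx2 overlapped.

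The knockout and C91A mutant comparisons ask what the loss of BAP1, or of its catalytic cysteine, does to these genes. In the knockout 5 of 5 tested genes were lower than in the untreated line. Of all genes tested 61.6% were called in either direction, 30.3% lower and 31.3% higher. The ranges of the groups were apart for 5 of 5, and for 66.3% of all genes. In the C91A mutant 4 of 5 were lower, where 55.0% of all genes were called, 26.4% lower and 28.6% higher. The ranges were apart for these 4, and for 58.6% of all genes. The median change of the 5 genes was -2.55 in the knockout and -1.18 in the mutant, against -0.01 over all genes in both. Against the wild type, 5 of 5 were lower in the knockout (62.9% of all genes called), and in the C91A mutant 4 were lower while Pou3f1 was higher by 0.53 (SE 0.08, adjusted p = 7.23e-08; 58.3% of all genes called). These knockout differences were -2.55 for Foxd3 (SE 0.18), -2.34 for Tcf15 (SE 0.10) and -1.87 for Gbx2 (SE 0.12). They were -1.26 for Otx2 (SE 0.13) and -0.66 for Pou3f1 (SE 0.09). The mutant differences were -1.73 for Tcf15, -1.46 for Foxd3, -1.35 for Gbx2 and -1.07 for Otx2. Foxd3, Gbx2 and Tcf15 were higher in the untreated knockout line than in the wild type (below).

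**Figure D3:**
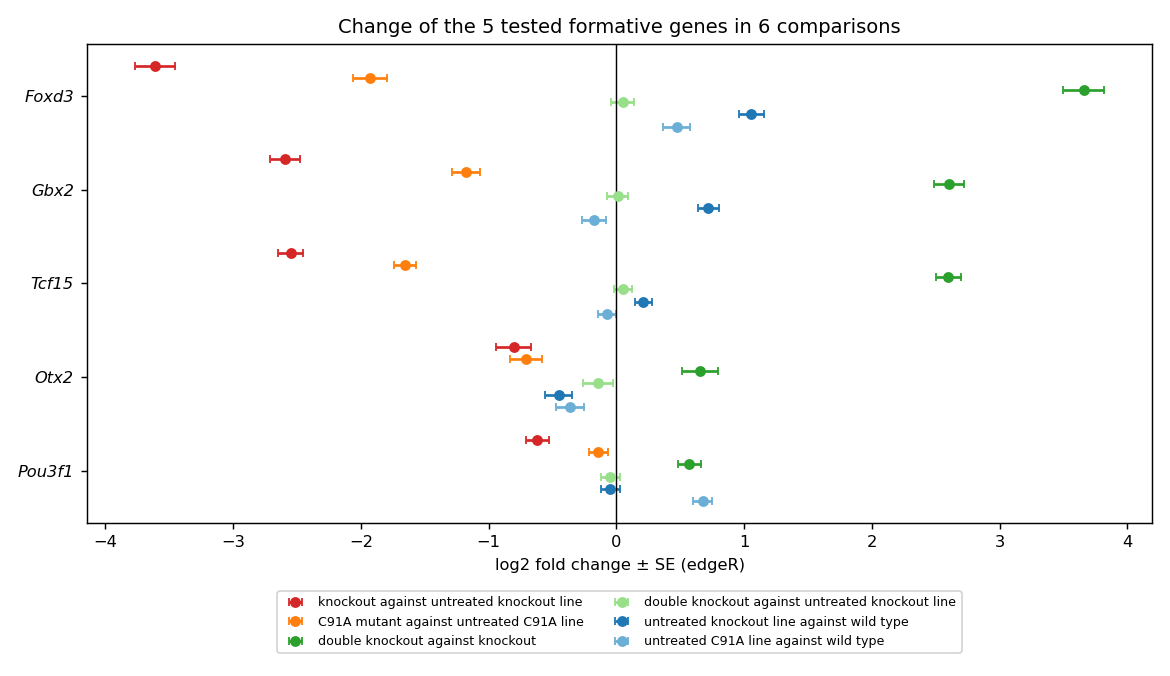
Log2 fold change ± SE from edgeR (horizontal axis) of the 5 tested genes in 6 comparisons, 1 color each. Foxd3, Gbx2 and Tcf15 are the farthest to the left in the knockout comparison, at -3.61, -2.59 and -2.55, and the double knockout against the untreated knockout line lies near 0 for each gene.

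The falls in the 2 lines were compared by the difference of the effects, the knockout's minus the mutant's, in which 25.9% of all genes passed and 13.8% were lower. The fall was deeper in the knockout for 4 of 5 tested genes. The difference was -1.68 for Foxd3 (SE 0.24, adjusted p = 7.12e-07), -1.42 for Gbx2 (SE 0.17, adjusted p = 2.55e-08), -0.89 for Tcf15 (SE 0.14, adjusted p = 4.25e-06) and -0.48 for Pou3f1 (SE 0.12, adjusted p = 0.00174). For Otx2 it was -0.10 (SE 0.19, adjusted p = 0.753), with a 95% interval of -0.48 to 0.28, and it was 0.25 with the libraries thinned to equal depth. The 2 untreated lines did not start at the same levels (below), and Bap1 RNA was lower in the untreated C91A line.

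Set directly against the C91A mutant, the knockout was lower in 4 of 5 genes, where 50.7% of all genes were called. Pou3f1 was lower by the most, with -1.20 (SE 0.09, adjusted p = 3.32e-15), then Foxd3 with -1.09 (SE 0.22), Tcf15 with -0.61 (SE 0.12) and Gbx2 with -0.52 (SE 0.15). Otx2 differed by -0.19 (SE 0.15, adjusted p = 0.317) and did not pass. For Pou3f1 this gap held a difference between the untreated lines as well, since Pou3f1 was at 38.6 ± 1.69 CPM in the untreated C91A line and 23.4 ± 1.91 in the untreated knockout line.

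The double knockout asks whether the loss of RNF2 as well changes what the loss of BAP1 does. All 5 tested genes were higher in the double knockout than in the knockout, where 63.2% of all genes were called, 32.6% higher and 30.6% lower. The ranges were apart for 5 of 5, and for 65.3% of all genes. Foxd3 was higher by 3.66 (SE 0.16, adjusted p = 9.77e-23), Gbx2 by 2.60 (SE 0.12, adjusted p = 5.48e-22), Tcf15 by 2.60 (SE 0.10, adjusted p = 9.92e-25), Otx2 by 0.66 (SE 0.14, adjusted p = 9.21e-05) and Pou3f1 by 0.57 (SE 0.09, adjusted p = 7.94e-07). The same knockout libraries serve in this comparison and in that with the untreated line, so the pair of comparisons is not independent. Whether the double knockout came from the same line is not given, so its distance from the knockout may hold a difference between lines.

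Against the untreated knockout line, with which the double knockout shares no libraries, none of the 5 genes passed, where 38.8% of all genes did. At an unadjusted p the smallest of the 5 was 0.218. The differences and their 95% intervals were 0.05 for Foxd3 (-0.14 to 0.23), 0.01 for Gbx2 (-0.16 to 0.18), 0.05 for Tcf15 (-0.09 to 0.19), -0.14 for Otx2 (-0.38 to 0.09) and -0.05 for Pou3f1 (-0.20 to 0.11). For Foxd3, Gbx2, Tcf15 and Pou3f1 the sign changed when some single libraries were left out. As shares of the untreated level the means were 104%, 101%, 104%, 88.8% and 96.9%.

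Against the wild type the double knockout was higher for Foxd3 (1.11, SE 0.10), Gbx2 (0.73, SE 0.09) and Tcf15 (0.26, SE 0.07), lower for Otx2 (-0.60, SE 0.11) and not called for Pou3f1 (-0.09, SE 0.08, adjusted p = 0.326), with 53.3% of all genes called. The untreated knockout line, which carries the conditional allele and had no 4-OHT, differed from the wild type in 4 of the 5 genes. It was higher for Foxd3 (1.06, SE 0.10), Gbx2 (0.72, SE 0.09) and Tcf15 (0.21, SE 0.07), lower for Otx2 (-0.45, SE 0.11) and not called for Pou3f1 (-0.05, SE 0.08, and 0.01 without untreated knockout line replicate 2), with 39.3% of all genes called. These comparisons share the wild-type libraries. The Tcf15 call was lost without untreated knockout line replicate 3, at 0.18 with an adjusted p of 0.0645.

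The untreated C91A line differed from the wild type in 3 of 5 genes, where 27.6% of all genes were called. Pou3f1 was higher by 0.67 (SE 0.07, adjusted p = 1.62e-09) and Foxd3 by 0.47 (SE 0.11, adjusted p = 0.000672), and Otx2 was lower by 0.36 (-0.36, SE 0.11, adjusted p = 0.0101). Tcf15 (-0.07, SE 0.07, and 0.05 at equal depth) and Gbx2 (-0.17, SE 0.09, adjusted p = 0.169) did not pass. With the libraries thinned to equal depth only the Pou3f1 call held, with Foxd3 at 0.34 (adjusted p = 0.0723) and Otx2 at -0.17 (adjusted p = 0.402). Otx2 was not called without untreated C91A line replicate 1 (-0.31, adjusted p = 0.0593), and Gbx2 was called without wild-type replicate 1 (-0.30, adjusted p = 0.0111).

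Ordered by mean CPM, Tcf15, Gbx2 and Foxd3 shared the top and the bottom of the order. The double knockout and the untreated knockout line came first, with no difference that passed, and the C91A mutant and then the knockout came last, each step down to them passing the test. Between them stood the wild type and the untreated C91A line, which differed for Foxd3 (adjusted p = 0.000672) and not for Tcf15 or Gbx2. For Otx2 the order was the wild type, the untreated C91A line, the untreated knockout line, the double knockout, the C91A mutant and the knockout. The untreated lines and the double knockout did not differ as neighbours, nor did the C91A mutant and the knockout. For Pou3f1 the untreated C91A line and the mutant came first and did not differ, the wild type, the untreated knockout line and the double knockout followed without a difference between neighbours, and the knockout was last.

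A wider list of 23 other genes linked to formative and early post-implantation epiblast cells, all tested, was set beside the 5. In the knockout 9 were higher and 9 lower, with a median change of 0.02. Among the called members whose log2 CPM averaged 2 or more, the largest changes were those of Etv4, an ETS factor induced by FGF and ERK (-1.59, SE 0.06), Grhl2, an epithelial factor of the formative state (-1.49, SE 0.08), and Sox3, a SOX factor of the epiblast and neural plate (1.39, SE 0.13). The C91A mutant had 10 higher and 7 lower, and the largest changes were those of Sox4 (1.20, SE 0.07), Sall2 (1.16, SE 0.10) and Etv4 (-0.91, SE 0.06). Of all genes tested 61.6% were called in the knockout, 31.3% higher and 30.3% lower. In the C91A mutant 55.0% were called, 28.6% higher and 26.4% lower. Of the wider list 78.3% were called in the knockout and 73.9% in the mutant, in both directions as for all genes.

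In the difference of the effects 3 of the 23 were higher and 9 lower, led by Grhl2 (-1.29, SE 0.10), Nodal, a TGF-beta family ligand of the epiblast (-0.89, SE 0.08), and Sox3 (0.83, SE 0.19). In the double knockout against the knockout 12 were higher and 6 lower, led by Dnmt3l, a cofactor of the de novo DNA methyltransferases (1.72, SE 0.05), Etv4 (1.58, SE 0.06) and Grhl2 (1.22, SE 0.08). Etv4 was at 153 ± 2.98 CPM in the untreated knockout line, 51.1 ± 1.36 in the knockout and 153 ± 10.1 in the double knockout. Sox3 was at 4.71 ± 0.410, 12.4 ± 0.352 and 13.1 ± 0.607 CPM in these groups and so stayed high in the double knockout. Against the untreated knockout line 11 of the 23 were higher in the double knockout and 3 lower, where 38.8% of all genes were called. Of all genes 25.9% were called in the difference of the effects, 13.8% lower. In the double knockout against the knockout 32.6% of all genes were higher and 30.6% lower.

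The naive pluripotency list, with Klf4, Esrrb, Nanog and others, had 15 of 15 members tested. In the knockout 3 were higher and 12 lower (median -0.44), led by Tcl1 (-1.59, SE 0.10), Nr0b1 (-1.53, SE 0.06) and Tbx3 (1.40, SE 0.05). The C91A mutant had 1 higher and 12 lower (median -0.42), and in the double knockout against the knockout 11 were higher and 2 lower. Of all genes tested 31.3% were higher and 30.3% lower in the knockout, 28.6% and 26.4% in the C91A mutant, and 32.6% and 30.6% in the double knockout against the knockout, and the counts of this list and of those that follow are to be read beside these shares. Of the 11 stem cell markers 1 was higher and 8 lower in the knockout, 1 higher and 9 lower in the C91A mutant, and 7 higher and 3 lower in the double knockout against the knockout.

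The FGF-ERK pathway list, which holds the ligand Fgf4, receptors, kinases and the feedback and early response genes that ERK induces, had 23 of 23 tested. In the knockout 7 were higher and 14 lower, led by Spry4, a feedback inhibitor (-2.42, SE 0.07), Fgf4 (-1.16, SE 0.04) and Egr1, an early response gene (-1.10, SE 0.09). The C91A mutant had 8 higher and 6 lower, and the largest changes were those of the receptor Fgfr4 (-1.30, SE 0.14), Fgf4 (-0.98, SE 0.04) and Spry4 (-0.94, SE 0.07). Spry4 was at 111 ± 3.99 CPM in the untreated knockout line, 20.6 ± 1.46 in the knockout and 104 ± 3.71 in the double knockout. In the double knockout against the knockout 14 were higher and 7 lower. The LIF-STAT3 list had 11 of 11 tested, with 5 higher and 5 lower in the knockout, 5 higher and 4 lower in the C91A mutant and 3 higher and 4 lower in the double knockout against the knockout. The share called was near that of all genes for the FGF-ERK list in the C91A mutant (60.9% against 55.0%) and for the LIF-STAT3 list in the double knockout (63.6% against 63.2%).

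E proteins are the partners of Tcf15, ID proteins bind E proteins and block them, and BMP signals raise the ID genes. Of the 13 genes of this kind, all tested, 8 were higher and 4 lower in the knockout. The largest changes were those of Bmp4 (-1.96, SE 0.14), the E protein gene Tcf12 (1.64, SE 0.05) and Id2 (1.52, SE 0.05). Tcf12 was at 61.0 ± 0.279 CPM in the untreated knockout line, 190 ± 3.46 in the knockout and 71.0 ± 5.25 in the double knockout, and Id2 was at 39.3 ± 0.751, 112 ± 4.85 and 55.0 ± 1.02 CPM. Of the other E protein genes, Tcf3 was at 257 ± 1.46, 241 ± 17.2 and 260 ± 6.67 CPM in these groups and was not called in the knockout, and Tcf4 was at 27.2 ± 2.28, 19.4 ± 1.52 and 22.7 ± 0.889 CPM, lower in the knockout as Tcf15 was. Id1, at 20.2 ± 0.645, 35.7 ± 3.14 and 40.6 ± 1.41 CPM, and Id3, at 11.9 ± 0.703, 22.2 ± 1.24 and 28.0 ± 1.39 CPM, did not return to the untreated level in the double knockout. Id4 went the other way by its means, at 3.40 ± 0.307, 2.05 ± 0.189 and 3.57 ± 1.06 CPM in these groups. Id2 came down in the double knockout but was still above the untreated knockout line, by 0.49 (SE 0.05, adjusted p = 1.08e-09). The C91A mutant had 7 higher and 2 lower, led by Tcf12 (1.09, SE 0.05), Id3 (1.02, SE 0.07) and Id1 (0.89, SE 0.07). In the double knockout against the knockout 8 were higher and 4 lower.

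**Figure D4:**
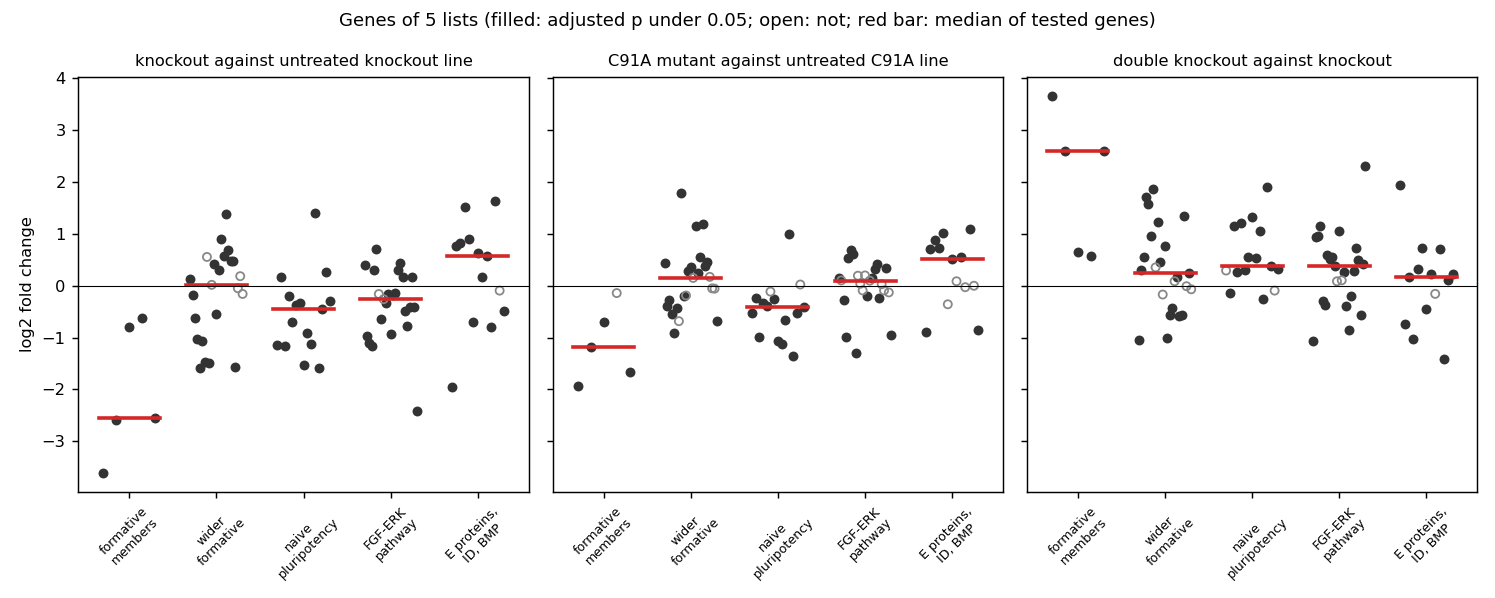
Log2 fold changes (vertical axis) of the tested genes of 5 lists in the knockout, C91A mutant and double knockout comparisons, 1 point per gene, filled where the adjusted p was under 0.05. The red bar is the list's median: -2.55 in the knockout for the 5 formative members and 0.02 for the wider list of 23.

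Markers of other cell types were counted in the same comparisons. In the knockout, where 61.6% of all genes were called and 31.3% were higher, 9 of 11 tested primitive endoderm markers were higher and 0 lower, as were 7 of 11 fibroblast markers and 5 of 7 neural crest markers. Trophoblast markers had 3 of 9 higher and 4 lower, neuroectoderm markers 3 of 9 higher and 1 lower, and markers of gastrulation 3 of 8 higher and 1 lower. The neuroectoderm and gastrulation lists thus had 44.4% and 50.0% called, less than the share of all genes. Group means of the tested neural crest markers were 9.77 to 25.9 CPM for Ets1 and at most 6.10 CPM for the others. Of the tested gastrulation markers, Wnt3 had group means of 4.89 to 20.5 CPM, Eomes 1.91 to 9.17 and the others at most 3.27. Summed over the list, primitive endoderm markers were at 749 to 777 CPM in the untreated knockout line, 1196 to 1252 in the knockout, 1829 to 1914 in the untreated C91A line, 2985 to 3194 in the C91A mutant, 1560.1 to 1673 in the double knockout and 2056 to 2106 in the wild type. The matrix genes Lamb1, Sparc and Col4a1 made up most of that sum, and the other members had group means of 5.71 to 23.0 CPM for the endoderm factor Gata4, 1.12 to 8.42 for Gata6, 0.311 to 1.88 for Sox17, 0.473 to 1.87 for Sox7, at most 0.281 for Hnf4a, 3.89 to 17.0 for Dab2 and 1.11 to 6.11 for Pdgfra, beside the matrix genes Lama1 and Col4a2. Gata4 was highest in the double knockout.

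In the C91A mutant, with 28.6% of all genes higher and 26.4% lower, 6 of 11 primitive endoderm markers were higher and 1 lower, 8 of 11 fibroblast markers higher and 1 lower, 5 of 7 neural crest markers higher, 4 of 9 trophoblast markers higher and 3 lower, 2 of 9 neuroectoderm markers higher and 1 lower, and 3 of 8 gastrulation markers higher and 1 lower. Trophoblast markers summed to 1352 to 1483 CPM in the mutant and 766 to 803 in its untreated line, and to 464 to 478 in the knockout and 331 to 353 in its untreated line. The keratin gene Krt18 made up most of this sum in the mutant and the knockout, at 886 ± 44.9 and 268 ± 1.65 CPM. In their untreated lines it was at 372 ± 13.8 and 133 ± 4.98 CPM. By group mean, Krt7, Krt8 and Gata3 were also higher in the mutant, and Hand1, Elf5, Ascl2, Tfap2c and Tead4 were lower. In the knockout Krt8, Gata3 and Ascl2 were also higher, and Krt7, Hand1, Elf5, Tfap2c and Tead4 were lower. Fibroblast markers summed to 3026 to 3225 CPM in the knockout, nearly all of it Fn1 (2998 ± 98.7). Acta2, a smooth muscle actin gene, was at 44.9 ± 0.740 CPM in the knockout and 4.81 ± 0.219 in its untreated line, and at 96.9 ± 5.41 in the C91A mutant and 9.28 ± 0.446 in its untreated line. The collagen gene Col1a1 was at 19.8 ± 1.77 and 10.9 ± 0.605 CPM in the first pair and 18.7 ± 0.445 and 7.82 ± 0.277 in the second, and Col1a2 at 18.2 ± 0.626 and 6.52 ± 0.720, then 26.4 ± 0.564 and 5.40 ± 0.896. Group means of Lum were at most 0.0463 CPM and those of Dcn at most 1.78. In the double knockout against the knockout, with 32.6% of all genes higher and 30.6% lower, 10 of 11 primitive endoderm markers were higher, 4 of 7 neural crest markers higher and 2 lower, 4 of 11 fibroblast markers higher and 2 lower, 5 of 9 trophoblast markers higher and 2 lower, 3 of 9 neuroectoderm markers higher and 3 lower, and 2 of 8 gastrulation markers higher and 1 lower. The part of these markers in the levels of the formative genes was not tested.

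The genes compared with each member were the 11560 with a name and a mean log2 CPM of 2 or more, members left out. Those whose log2 CPM ran closest to each member over the 18 libraries are given as a description, since the libraries share groups and depth. For Tcf15 they were Itgb7 (r = 0.983), Rfc5 and Dido1, for Gbx2 Halr1 (r = 0.986), Inhbb and Epas1, and for Foxd3 Mycn (r = 0.980), Srsf2 and M1ap. Inhbb, the beta B subunit of activin, was at 39.2 CPM in the untreated knockout line, 2.17 in the knockout and 39.8 in the double knockout as group means, and Halr1, a long noncoding RNA beside the Hoxa cluster, at 20.8, 1.46 and 21.0 CPM. Mycn, a MYC family factor, was at 201, 64.8 and 174 CPM. For Otx2 the closest were Leprotl1 (r = 0.955), Srl and Ccdc114, and for Pou3f1 Trim26 (r = 0.967), Irgm1 and Cdkn2aipnl. Irgm1, an immune GTPase, was at 26.0 CPM in the untreated C91A line, 14.6 in the mutant and 0.833 to 4.10 in the other 4 groups.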

How the data were processed

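RNA from 18 libraries (6 groups of 3) was sequenced with single 50-base reads (30 M, or mega, planned each), per the labels' protocols. Alignment was with GSNAP to GRCm38, per the submitters' processing notes. Tool versions, annotation and strand use are not given in the sources used here. The authors deposited, a count and a size-factor-adjusted RPKM per Entrez gene. The deposited counts were tested, and the deposited RPKM values were used only for levels between genes and for the authors' size factors. Of 36528 genes, 31049 were named from RefSeq GRCm38.p6 and 78 from GENCODE M21.

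Testing used edgeR 4.0.16 in R 4.3.3 with limma 3.58.1: filterByExpr (16875 genes left), TMM factors, a quasi-likelihood fit to all 18 libraries with 1 mean per group, and Benjamini-Hochberg adjustment at 0.05. The SE was taken as the size of the log2 fold change over the root of its F statistic. Library totals were 8.11 to 23.0 M counts, and the common dispersion of 0.002 (a coefficient of variation of 4.47%) lets small changes pass. Pairs of replicates differed by more than counting noise (chi-square per degree of freedom 1.77 to 5.78). The test was checked on simulated counts.

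The members, lists and tests were chosen with earlier results of these data known. Named genes were the 6 members, Bap1 and Rnf2, of each list at most the 3 called genes with the largest change and log2 CPM averaging 2 or more, and the 3 genes closest to each member; the levels of Etv4, Sox3, Spry4 and of genes of the E protein and ID list, and of marker genes, were added after their values were seen. The comparisons of double knockout with the untreated knockout line, of knockout and C91A mutant with wild type, and of knockout with C91A mutant were added after seeing the data. Alternatives were DESeq2 1.42.0, RLE factors, the authors' size factors, no filter, only the groups compared, equal depth, and leaving out each library.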

Additional observations from a re-analysis of the deposited data

Results flagged for a closer look

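The fall from the untreated line differed between the knockout and the C91A mutant by a test of the difference itself for 4 of the 5 tested genes. The difference, knockout minus mutant on the log2 scale, was -1.68 for Foxd3, -1.42 for Gbx2, -0.89 for Tcf15 and -0.48 for Pou3f1, with 25.9% of all genes passing the same test. The untreated lines differed at the start for each of these 4, all with an adjusted p under 0.05 in edgeR's test. Foxd3 was at 20.5 CPM in the untreated knockout line and 13.7 in the untreated C91A line, and Gbx2 at 36.6 and 19.8. Tcf15 was at 39.0 and 32.0, and Pou3f1 at 23.4 and 38.6. Whether these starting levels bear on the differences was not tested.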

How the results depend on the processing

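Over 690 recomputed values of single genes in 11 comparisons, 670 kept their direction and their side of the threshold, 4 lost the call, 2 gained it and 14 changed sign. The lost and gained calls stand beside their results. The 14 were of values that were not called in either setting, and the largest recomputed value among them was 0.25, for Otx2. None of the 540 recomputed values of called results changed sign. At equal depth the difference of effects was 0.25 for Otx2, Tcf15 in the untreated C91A line against the wild type was 0.0479, and the double knockout against the untreated knockout line gave -0.0341 for Gbx2 and -0.00872 for Foxd3; with no filter Gbx2 gave -0.00938 there. Leaving out a library, that comparison ranged from -0.057 to 0.066 for Gbx2, -0.022 to 0.10 for Foxd3, -0.028 to 0.12 for Tcf15 and -0.10 to 0.011 for Pou3f1. Likewise the difference of effects ranged from -0.28 to 0.019 for Otx2, and Pou3f1 in the untreated knockout line against the wild type from -0.11 to 0.0082. Of the counts of called genes, 2 moved by over 1.5 times, both in the untreated C91A line against the wild type at equal depth: formative genes called went from 3 to 1 and wider formative genes from 14 to 9. The cause was not tested. Fgf5 gave a value with no filter alone. Low reads limit Foxd3 in the knockout (11 to 25 a library) and Fgf5 in each group. No paired analysis was possible because the labels give no replicate numbers and the numbers used here follow the order of submission.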
